A study of Mus musculus with 27 samples.

Results

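The comparison described here is the transcriptional response of mouse thyroid tumor lines that carry mutant Braf, and no engineered loss of a chromatin remodeling gene, to a combined inhibitor of RAF and MEK. Its members were taken from the count table by their column names: 3 libraries of treated Braf lines and 3 libraries of the same lines in vehicle, paired by the line id (B47275, B48051 and B52482). These 6 libraries belong to a series of 27. The treated group carried Braf(V600E) and received CH5126766, named CKI in the labels, at 300 nM for 8 days, and the vehicle group carried the same allele and received 40% Trappsol. Bovine TSH, the hormone that stimulates thyroid cells, is named in the treatment protocol. The wording can be read as giving TSH to treated cells alone or to both arms. On the first reading, effects of TSH and of CKI cannot be told apart in any change described here. The 18 libraries of 9 knockout lines (Braf(V600E) with loss of Arid1a, Arid2 or Smarcb1), treated and vehicle in the same way, entered the same fit, and 3 libraries marked wildtype and untreated are used only for levels. The source of the wildtype libraries is also labelled as a thyroid tumor cell line. The lines were grown out from dissected tumors. Which promoter or Cre switched on the Braf allele, whether a line is clonal and the age of the mice could not be read from the labels. Whether the 3 lines came from separate animals could not be read either, so the p-values measure a spread between lines, not animals. That spread is of the CKI change. It was estimated together over the 24 libraries of 12 lines in the fit, not from the 3 Braf lines alone.

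RAF kinases phosphorylate MEK, MEK phosphorylates ERK, and ERK drives the transcription of ETS family factors, cyclin D1 and a set of its own inhibitors, the dual specificity phosphatases (Dusp) and the Sprouty and Spred proteins. The V600E form of Braf signals without RAS and escapes that feedback, and in the thyroid it is known as a driver of papillary cancer that silences the genes of hormone synthesis. Inhibitors of this pathway are known to lower the feedback genes and, in part of thyroid tumors, to restore iodide handling.

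Each library held between 22916299 and 27257703 counts under CKI and between 18417255 and 21477216 in vehicle. Levels are CPM (counts scaled to library size), means are ± SD over the 3 lines, and changes are log2 of CKI over vehicle ± SE. A gene was called where edgeR's quasi-likelihood test with the line as a block gave a Benjamini-Hochberg adjusted p under 0.05. Of 15634 genes tested, 388 were called (2.48%), of which 222 rose (1.42%) and 166 fell (1.06%) under CKI. The median absolute log2 change of the called genes was 1.49, and 268 of them changed by more than 1. In 381 of the 388 the change had the same direction in all 3 lines, and in the other 7 a line had no difference. Over all genes tested, 3919 were higher and 3707 lower in all 3 lines. The test favors genes on which the lines agree, so the 381 are no separate support. CKI and vehicle libraries did not overlap for 2549 genes (16.3%). The median change of all genes tested was 0.02. The count of calls changed with the design of the fit: without the line as a replicate block 0 genes were called (1744 at an unadjusted p under 0.05, smallest adjusted p = 0.105), and with only the 6 Braf libraries and the block 1 gene was called, the matrix proteoglycan Dcn. The count was 51 without B47275, 63 without B48051 and 6 without B52482. All 388 kept their direction in each of these fits, which follows from the agreement between lines given above and adds no support.

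**Figure D1:**
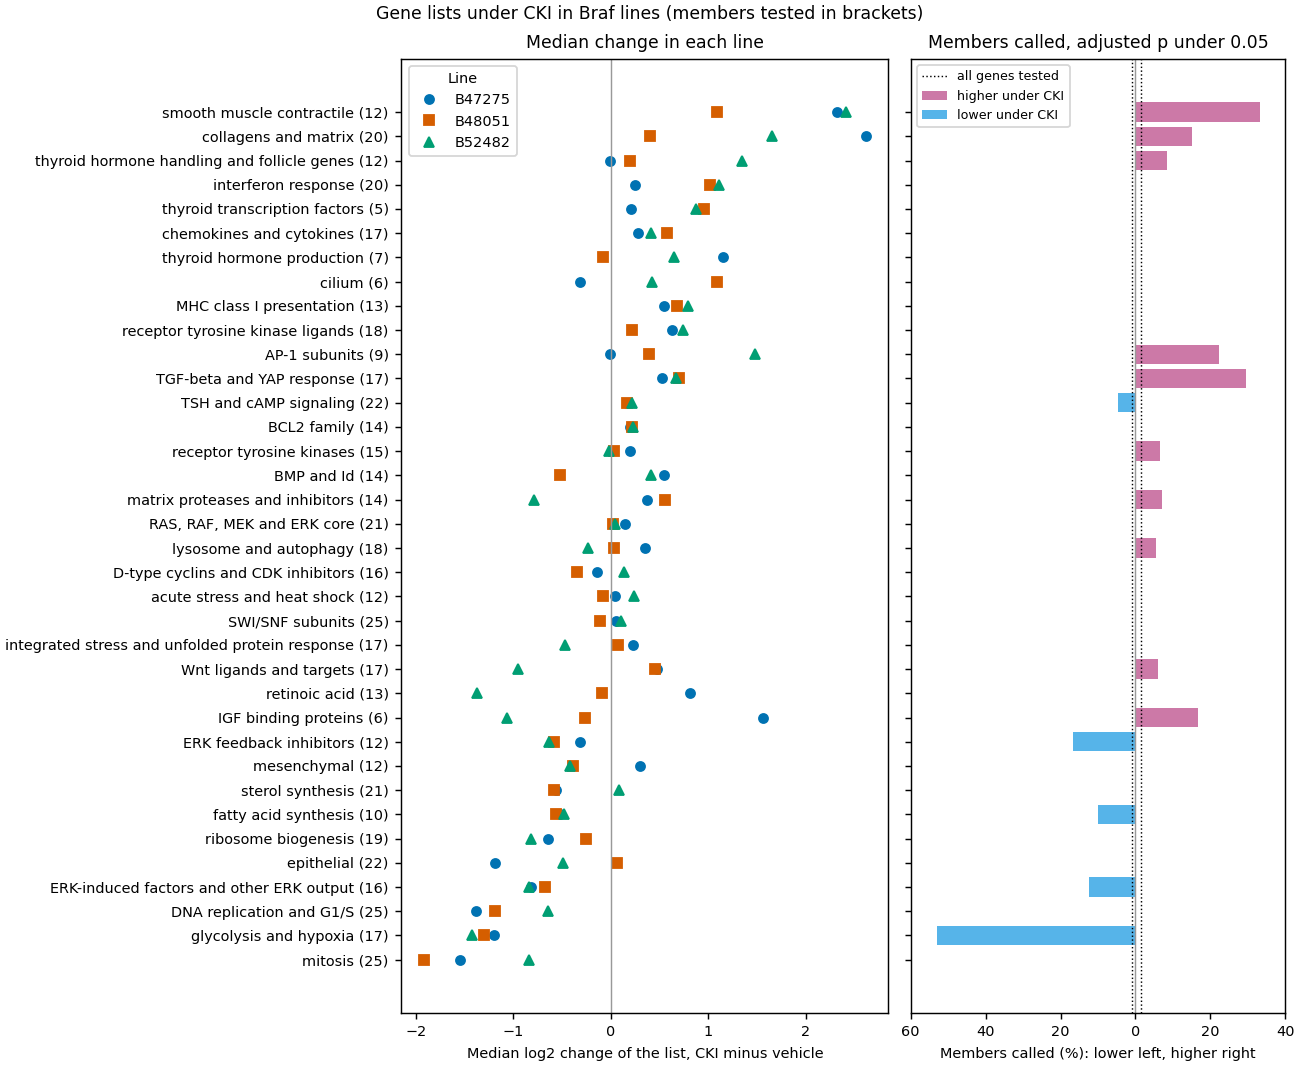
Gene lists in Braf lines, with the number of members tested in brackets. The left panel plots the median log2 change (CKI minus vehicle) of each list in each of the 3 lines, and the right panel plots the percent of members called, with dotted lines at the 1.42% higher and 1.06% lower of all genes; glycolysis and hypoxia genes have the longest bar, with 9 of 17 members lower.

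The kinases of the pathway itself gave no call at the RNA level. Of 21 genes for RAS, RAF, MEK and ERK proteins and their regulators 0 were called, and their median change was 0.13. Braf, the kinase that carries the mutation, was at 71.6, 59.1 and 113 CPM under CKI in lines B47275, B48051 and B52482, and at 51.1, 45.6 and 52.5 CPM in vehicle. The groups did not overlap, but the change of 0.66 ± 0.18 did not pass (adjusted p = 0.0753). Map2k1, which encodes MEK1, had a change of -0.59 ± 0.18 (adjusted p = 0.0978).

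The feedback inhibitors did not move as a block. Of 12 tested, 2 fell (Dusp4 and Spry4), 0 rose and 10 did not pass, with a median change of -0.3. Dusp4, a nuclear phosphatase that acts on ERK, was at 22.6, 62.7 and 34.2 CPM under CKI and at 131, 282 and 226 CPM in vehicle. Every treated library was below every vehicle library, and each line lost a similar share of its RNA (-2.53, -2.17 and -2.72). The fitted change of -2.48 ± 0.19 had the smallest p of all genes (adjusted p = 0.000826), and Dusp4 was called with any of the 3 lines left out. Spry4, a Sprouty protein that blocks signaling above RAF, was at 3.7, 2.31 and 9.84 CPM under CKI and at 9.37, 16.3 and 63.3 CPM in vehicle. It was lower in each line, though treated B52482 lay above vehicle B47275, and its change was -2.29 ± 0.38 (adjusted p = 0.0185). Spry4 was called without B47275 (adjusted p = 0.036), and not without B48051 or without B52482 (adjusted p = 0.0964 and 0.163).

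Dusp6, the cytoplasmic ERK phosphatase often read as a gauge of pathway output, was at 105, 76.9 and 59.9 CPM under CKI and at 306, 180 and 210 CPM in vehicle. The groups were apart, and the change of -1.53 ± 0.37 missed the threshold (adjusted p = 0.0593). Spred2, an inhibitor of RAF activation, averaged 60.9 ± 9.18 CPM under CKI and 105 ± 29.1 CPM in vehicle (SD, n = 3 each; change -0.77 ± 0.23). Spred3 had a change of -0.80 ± 0.25. The remaining members showed no common direction. Spry1 (0.59 ± 0.53), Spry2 (-0.41 ± 0.37), Spred1 (0.18 ± 0.20), Dusp5 (-0.19 ± 0.37), Dusp7 (0.10 ± 0.36) and Errfi1, an inhibitor of the EGF receptor (0.05 ± 0.31), had log2 changes smaller than 1. Dusp2, a phosphatase induced in activated lymphocytes, was at 26.7, 9.74 and 68.5 CPM under CKI and at 10.2, 6.95 and 5.42 CPM in vehicle, and its change of 1.81 ± 0.75 did not pass (adjusted p = 0.199).

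Among 16 other genes that ERK induces, 2 ETS factors fell and 0 genes rose. Etv5 was at 31, 19.3 and 38.3 CPM under CKI and at 74.6, 77.2 and 204 CPM in vehicle, with no overlap and a change of -1.89 ± 0.25 (adjusted p = 0.00862). Etv5 was called without B47275 (adjusted p = 0.0207), and not without B48051 or without B52482 (adjusted p = 0.055 and 0.0918). Etv1 was at 33.9, 2.48 and 13.4 CPM under CKI and at 84.6, 16.7 and 76.1 CPM in vehicle. It was lower in every line, with treated B47275 above vehicle B48051, and its change was -2.17 ± 0.43 (adjusted p = 0.0317). Etv1 was lost with each line left out in turn (adjusted p = 0.066, 0.122 and 0.223 without B47275, B48051 and B52482). The third factor of this subfamily, Etv4, averaged 22 ± 12.4 CPM under CKI and 119 ± 40.4 CPM in vehicle without overlap, and its change of -2.52 ± 0.79 did not pass (adjusted p = 0.108).

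Cyclin D1 (Ccnd1), which carries ERK signaling to the G1 phase of the cell cycle, was at 615, 1507 and 395 CPM under CKI and at 2168, 2604 and 3307 CPM in vehicle. All treated libraries were lower, but the lines ranged from -0.79 in B48051 to -3.06 in B52482, and the fitted change of -1.89 ± 0.52 did not pass (adjusted p = 0.0804). Fosl1, an AP-1 subunit stabilized and induced by ERK, was at 2.23, 4.2 and 2.85 CPM under CKI and at 7.82, 9.14 and 17.4 CPM in vehicle (change -1.84 ± 0.53, adjusted p = 0.0914). Myc, a growth factor response gene, was at 21.4, 135 and 40.6 CPM under CKI and at 71.7, 142 and 78.1 CPM in vehicle, and line B48051 hardly differed (-0.06). Plaur (-1.16 ± 0.70), Emp1 (-1.50 ± 0.62), Egr3 (-1.74 ± 1.02) and Epha2 (-0.24 ± 0.39) also had values below 0 that did not pass.

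The early response factor Egr1 had the opposite sign. It was at 98.6, 90 and 249 CPM under CKI and at 61.3, 51.8 and 60.9 CPM in vehicle, so each treated library was above each vehicle library after 8 days, with a change of 1.17 ± 0.28 that did not pass (adjusted p = 0.058). Egr2 (1.96 ± 1.03), Ier3 (1.04 ± 0.69), Epha4 (0.78 ± 0.83), Ier2 (0.53 ± 0.34) and Phlda1 (0.48 ± 0.38) did not pass either. Of both ERK lists together, 4 members were called (16.7% of the feedback list and 12.5% of the other, against 2.48% of all genes).

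**Figure D2:**
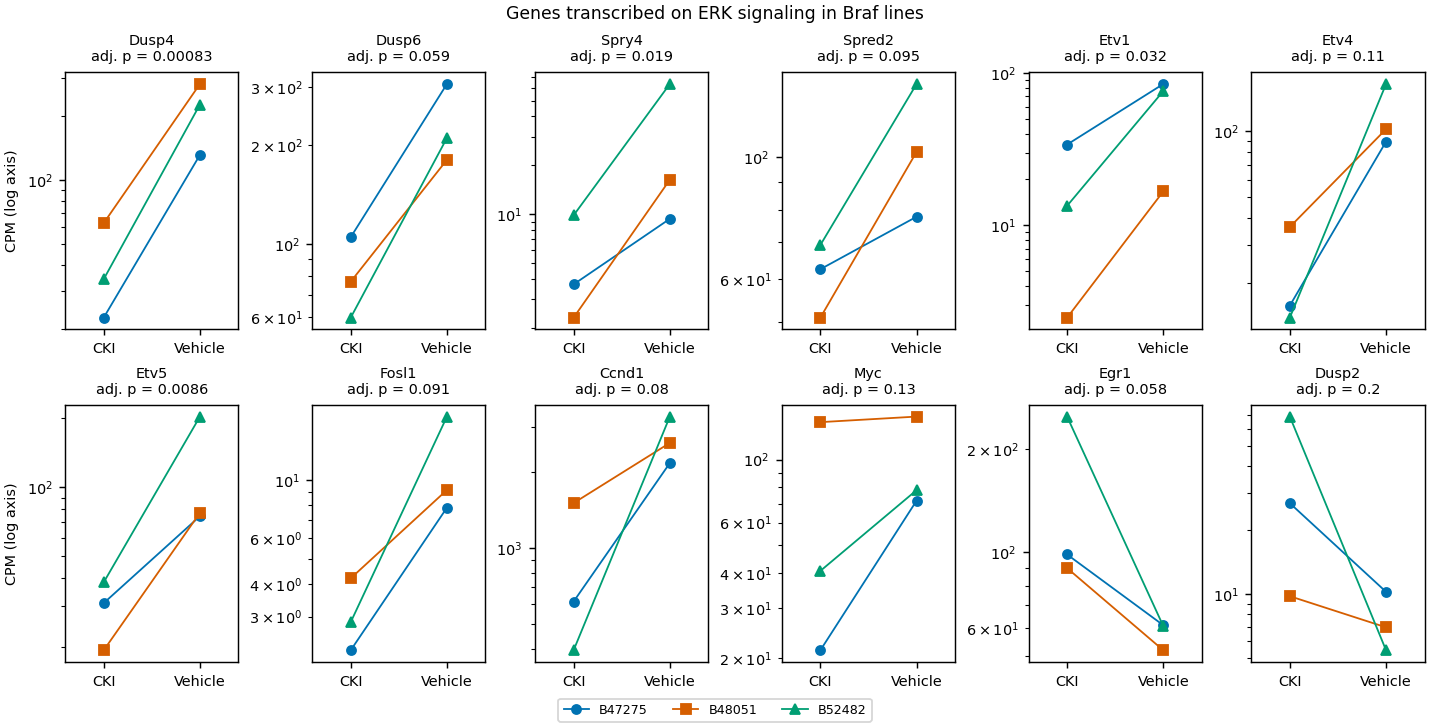
Levels of 12 genes transcribed on ERK signaling, in CPM on a log axis, with a line joining the CKI and vehicle libraries of each of the 3 Braf lines. Dusp4 falls in parallel in the 3 lines, Ccnd1 and Fosl1 are lower in every line by unequal amounts, and Egr1 and Dusp2 are higher under CKI in every line.

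The other AP-1 subunits did not follow Fosl1. Fosl2, a FOS family subunit, was at 374, 317 and 491 CPM under CKI and at 125, 125 and 175 CPM in vehicle, and rose by 1.47 ± 0.19 with similar sizes in the 3 lines (adjusted p = 0.00862). Atf3, a stress-induced partner of JUN, averaged 38.2 ± 12.9 CPM under CKI and 10.6 ± 4.5 CPM in vehicle without overlap (1.88 ± 0.25, adjusted p = 0.00894). The other 7 of 9 tested AP-1 genes did not pass, so 22.2% were called, against 2.48% of all genes. Fos differed by line (10.3, 37.3 and 62.3 CPM under CKI, 9.04, 22.8 and 1.56 CPM in vehicle).

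Cell cycle genes were lower in every treated line, yet no member passed. All 25 mitosis genes had a negative change in all 3 lines, with CKI and vehicle libraries apart for all 25, against 16.3% of all genes apart and 3707 of 15634 genes lower in all 3 lines. Their median change was -1.47 and their adjusted p lay between 0.064 and 0.29. Cenpa, the centromeric histone, was at 15, 12.1 and 18.1 CPM under CKI and at 48.9, 54.9 and 42 CPM in vehicle (-1.70 ± 0.42), and Aurka, a spindle kinase, was at 12.8, 15.5 and 11.8 CPM under CKI and at 45, 54.2 and 29 CPM in vehicle (-1.64 ± 0.45). The 3 lines agreed in sign and differed in size, with medians of -1.55 in B47275, -1.92 in B48051 and -0.84 in B52482. Of 25 DNA replication and G1/S genes all were lower in all 3 lines and 20 did not overlap, with a median change of -1.05 and 0 called. The licensing factor Cdt1 averaged -1.61 ± 0.39 (adjusted p = 0.0602), and Pcna, the polymerase clamp, was at 60.5, 79.6 and 69.8 CPM under CKI and at 142, 156 and 96.8 CPM in vehicle. DESeq2 with the same design called 14 of the mitosis genes and 4 of the replication genes, all lower, and 0 of either were called by edgeR in any fit of the tumor lines alone. Ribosome biogenesis genes were lower in all 3 lines for 18 of 19 members (median -0.61, 0 called). In bulk libraries of this kind, fewer cells of a state and less RNA of a gene per cell cannot be told apart. Of 16 D-type cyclins and CDK inhibitors 0 were called.

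Genes of glycolysis and of the hypoxia response were the list with the most calls. Of 17 members 9 fell and 0 rose (52.9% called, against 2.48% of all genes). The groups did not overlap for 12 members, against 16.3% of all genes, and the median change was -1.44 against 0.02 for all genes. The calls began at the cell surface with Slc2a1, the glucose transporter GLUT1, which was at 47.9, 34.7 and 86.2 CPM under CKI and at 145, 112 and 215 CPM in vehicle (-1.54 ± 0.21, adjusted p = 0.00933). Pfkl, the liver-type phosphofructokinase that commits sugar to glycolysis, was at 90.5, 53.8 and 80.9 CPM under CKI and at 238, 196 and 237 CPM in vehicle (-1.60 ± 0.18, adjusted p = 0.00634). Both genes were lower in every treated library than in any vehicle library. Ldha, which turns pyruvate into lactate, was at 469, 334 and 415 CPM under CKI and at 1401, 1173 and 1182 CPM in vehicle (-1.63 ± 0.20, adjusted p = 0.00769). Eno1, which makes the last phosphorylated intermediate, was at 317, 159 and 269 CPM under CKI and at 730, 309 and 719 CPM in vehicle, with treated B47275 just above vehicle B48051 (-1.19 ± 0.17, adjusted p = 0.0114). The other 5 called members, the enzymes Aldoa (-1.10), Pgk1 (-1.44) and Pkm2 (-1.37), the pyruvate dehydrogenase kinase Pdk1 (-1.51) and the mitophagy gene Bnip3 (-1.63), were apart between the groups as well. The sizes were alike in the lines, with list medians of -1.20, -1.30 and -1.42 in B47275, B48051 and B52482. Ak4, a mitochondrial adenylate kinase outside the list and among the smallest p-values, was at 2.23, 0.084 and 2.3 CPM under CKI and at 11.2, 1.05 and 12.4 CPM in vehicle (-2.56 ± 0.26, adjusted p = 0.00472). The count of called glycolysis genes was 2 without B47275, 4 without B48051 and 0 without B52482.

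Because these genes fell together, the RefSeq promoter windows of the called members (build GRCm38.p6) were searched for ACGTG, the core of the hypoxia response element, on both strands, a motif chosen after the calls were seen. Of the 9 genes 8 had an entry and 5 of these held the motif in at least 1 window, against 21.8% of all genes with an entry. The list was made of glycolysis and hypoxia genes, and its members that were not called were not searched. The search therefore cannot tie the motif to the fall under CKI. The 250 bases before the gene start are shown for 4 of the 5, in lower case with matches in capitals, and a palindromic match counts on both strands. They lie at chr7:46845554-46845803 on the plus strand for Ldha, chrX:106186850-106187099 on the plus strand for Pgk1, chr7:138909507-138909756 on the minus strand for Bnip3 and chr4:119108495-119108744 on the plus strand for Slc2a1.
Ldha: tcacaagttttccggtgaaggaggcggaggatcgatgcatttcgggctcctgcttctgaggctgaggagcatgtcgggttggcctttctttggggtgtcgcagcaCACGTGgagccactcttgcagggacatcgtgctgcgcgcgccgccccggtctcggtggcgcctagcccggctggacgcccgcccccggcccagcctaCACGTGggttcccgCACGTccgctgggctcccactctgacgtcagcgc
Pgk1: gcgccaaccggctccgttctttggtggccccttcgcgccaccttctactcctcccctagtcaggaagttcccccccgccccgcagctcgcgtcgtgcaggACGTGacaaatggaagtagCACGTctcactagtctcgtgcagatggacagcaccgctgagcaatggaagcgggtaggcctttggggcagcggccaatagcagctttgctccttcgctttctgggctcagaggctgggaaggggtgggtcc
Bnip3: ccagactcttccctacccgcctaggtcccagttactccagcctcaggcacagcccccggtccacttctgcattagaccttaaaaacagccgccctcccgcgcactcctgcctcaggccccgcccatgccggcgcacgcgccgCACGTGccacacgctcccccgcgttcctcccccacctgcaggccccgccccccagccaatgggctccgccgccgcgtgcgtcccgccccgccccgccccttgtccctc
Slc2a1: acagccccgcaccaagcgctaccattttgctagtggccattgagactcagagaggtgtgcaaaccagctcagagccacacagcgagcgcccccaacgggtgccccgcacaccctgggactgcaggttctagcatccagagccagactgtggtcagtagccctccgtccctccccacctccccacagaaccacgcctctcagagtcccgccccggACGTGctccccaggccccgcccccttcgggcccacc
Ldha held 5 matches, Pgk1 and Bnip3 held 2 each and Slc2a1 held 1, and the windows of Pfkl, Eno1 and Pdk1 held none. In the ERK lists, Etv1 and Etv5 had an entry, and neither held the ETS core CCGGAA, the AP-1 site TGACTCA or the cAMP response element TGACGTCA, which 16.7%, 5.95% and 2.03% of genes hold. The 4 called contractile genes of smooth muscle, described below, were searched for the CArG box (CCWWWWWWGG, with W for A or T). Of these 3 had an entry and 0 held it, against 1.81% of all genes.

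Thyroid genes were higher in part, and only Lrp2 passed. The label of the lines as thyroid was checked on the transcription factors that mark this tissue. Pax8 was at 148, 246 and 158 CPM under CKI and at 129, 79.6 and 86.4 CPM in vehicle, against 532 ± 39.3 CPM in the wildtype libraries (SD, n = 3), whose CPM come from a scaling over all 27 libraries. The wildtype libraries also held genes of other cell types, with Calca at 2673 ± 749 CPM, Dcn at 1410 ± 623 CPM and the muscle myosin Myh1 at 232 ± 108 CPM, and the part of those cells in the wildtype levels was not tested. Nkx2-1 was at 174, 24 and 253 CPM under CKI and at 113, 12.3 and 75.6 CPM in vehicle. Both factors were thus present in each line, with Nkx2-1 lowest in B48051. Neither passed between treatments (Pax8 0.90 ± 0.33, adjusted p = 0.156; Nkx2-1 1.11 ± 0.40, adjusted p = 0.146). Foxe1, the third factor, was at 4.17, 0.084 and 0 CPM under CKI and at 6.84, 0 and 0 CPM in vehicle, against 295 ± 48 CPM in wildtype, so it was near 0 in B48051 and B52482 with or without the inhibitor. Glis3, a zinc finger factor needed for hormone synthesis, was at 131, 243 and 156 CPM under CKI and at 32.2, 49.4 and 35.9 CPM in vehicle, without overlap. Its change of 2.15 ± 0.58 was alike in the 3 lines and did not pass (adjusted p = 0.0767). Hhex was at 40.9, 24.1 and 29.7 CPM under CKI and at 40.3, 21.5 and 24.1 CPM in vehicle.

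Of 12 genes of hormone production 7 had enough counts to be tested, and 0 were called. Thyroglobulin (Tg), the protein scaffold on which hormone is made, was at 275, 7.06 and 262 CPM under CKI and at 7.54, 1.67 and 1.56 CPM in vehicle. It was higher in every treated line, least so in B48051, and its change of 5.01 ± 1.29 did not pass (adjusted p = 0.0701). Wildtype libraries held 282771 ± 59277 CPM. Tshr, the receptor for TSH, was at 0.755, 0.42 and 52.7 CPM under CKI and at 0.234, 0.105 and 0.469 CPM in vehicle, against 121 ± 42.7 CPM in wildtype, so a level above 1 CPM was seen in treated B52482 only. Slc26a7, an anion exchanger of the follicular cell, was at 14.1, 0.924 and 0.298 CPM under CKI and at 0.984, 0 and 0.104 CPM in vehicle, against 1190 ± 165 CPM in wildtype. The sodium iodide symporter Slc5a5, which takes up iodide, averaged 0.172 ± 0.0836 CPM under CKI and 0.443 ± 0.231 CPM in vehicle, against 254 ± 149 CPM in wildtype (change -1.33 ± 0.69, adjusted p = 0.292). It was lower under CKI in each line, at levels under 1 CPM. Duox1 (0.69 ± 0.56), Duoxa1 (-0.19 ± 0.91) and the chloride channel Ano1 (-1.73 ± 0.59) did not pass.

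The other 5 production genes were too low to test. Among those, Iyd, the deiodinase that recovers iodide, had 0, 0 and 4 counts under CKI and 0 in each vehicle library. Duox2 had 6, 4 and 3 counts under CKI and 3, 1 and 2 counts in vehicle, Duoxa2 at most 3 counts in any of the 6 libraries, and Slc26a4 at most 8. The wildtype libraries held Iyd at 868 ± 7.94 CPM. The 4 genes were near 0 in treated lines as in vehicle.

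Of 12 tested genes of hormone handling and follicle structure 1 rose and 0 fell (8.33% called, against 2.48% of all genes). Lrp2 (megalin), the endocytic receptor that takes up thyroglobulin at the apical membrane, was at 41.1, 40 and 478 CPM under CKI and at 2.58, 0.418 and 0.417 CPM in vehicle, with no overlap. Its change was 6.61 ± 0.94 (adjusted p = 0.0111), and wildtype libraries held 136 ± 40.2 CPM. Lrp2 was called without B47275 and without B52482, and not without B48051 (adjusted p = 0.055). Its promoter window held 1 ETS core. Cdh16, the cadherin of thyroid and kidney, was at 0.827, 472 and 35.3 CPM under CKI and at 0.843, 121 and 0.0521 CPM in vehicle. It was under 1 CPM in B47275 in both arms, present in both arms of B48051, and in B52482 above 1 CPM under CKI only. Kcnq1, a potassium channel of the basolateral membrane, was at 0.971, 14 and 0.17 CPM under CKI and at 12.1, 65.1 and 165 CPM in vehicle (-4.43 ± 1.22, adjusted p = 0.0804). Dio2 (1.30 ± 1.07), Slco4a1 (-2.90 ± 1.04), Slc7a8 (1.91 ± 0.77), Slc16a10 (-0.72 ± 0.68), Clcn5 (0.25 ± 0.19) and the hormone receptors Thra (0.81 ± 0.32) and Thrb (0.15 ± 0.63) did not pass, and Dio3 was seen in treated B52482 only, at 0.213 CPM. Among 4 untested genes, Dio1 had 18, 1 and 0 counts under CKI and 0 in each vehicle library. Kcne2, the beta subunit that pairs with Kcnq1, had 4 counts in each treated library and 0 in each vehicle library.

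**Figure D3:**
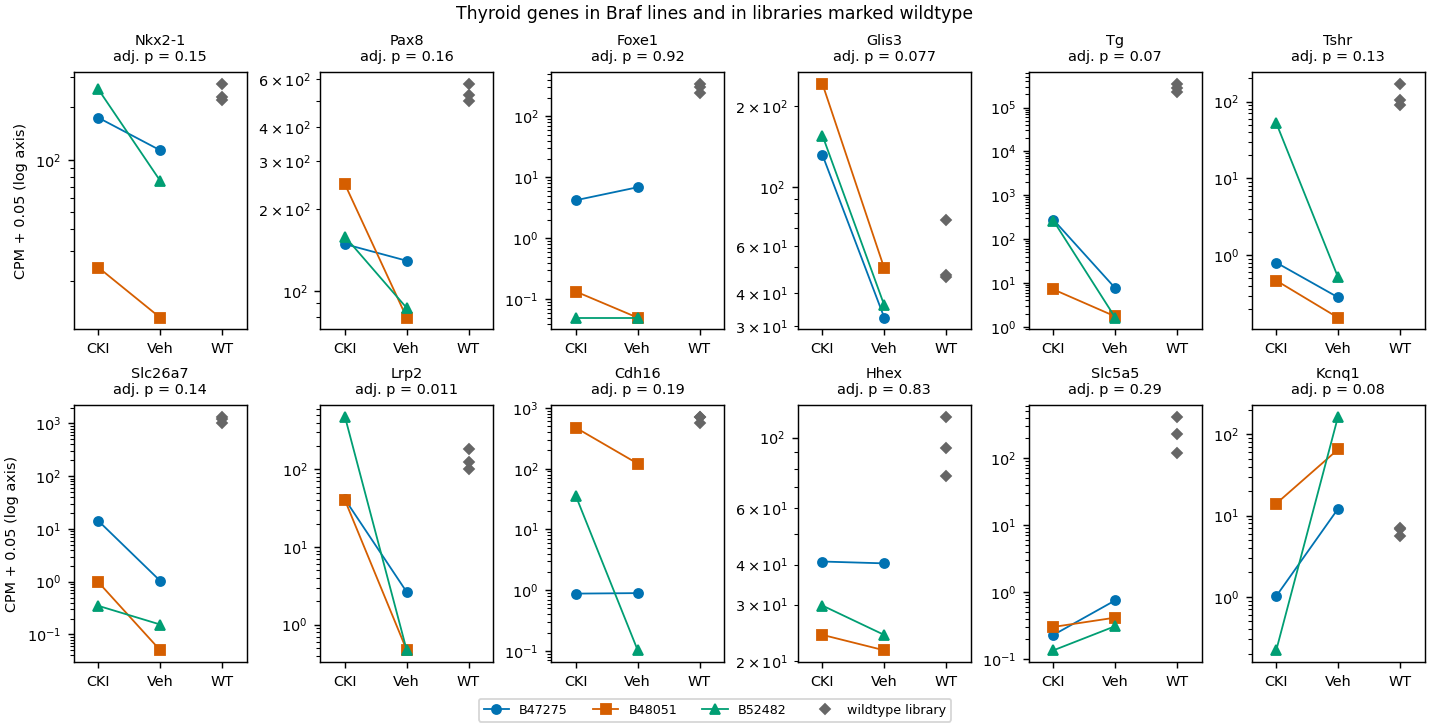
Levels of 12 thyroid genes in CKI and vehicle libraries of the 3 Braf lines (joined by a line) and in the 3 wildtype libraries, as CPM plus 0.05 on a log axis. Lrp2 under CKI is at 41.1, 40 and 478 CPM, against a wildtype mean of 136 CPM, while Tg under CKI, at 7.06 to 275 CPM, and Slc5a5 and Slc26a7 lie far below the wildtype libraries.

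In the list of TSH and cAMP signaling 1 of 22 genes was called (4.55%, against 2.48% of all genes). Prkar2b, a regulatory subunit of protein kinase A, was at 21.1, 14.1 and 20.8 CPM under CKI and at 54.3, 19.4 and 52.1 CPM in vehicle, a fall of -1.06 ± 0.22 (adjusted p = 0.0375) with treated B47275 and B52482 above vehicle B48051. Nr4a3, a factor induced by cAMP, was at 12.3, 1.81 and 103 CPM under CKI and at 1.87, 0.993 and 0.469 CPM in vehicle and did not pass (adjusted p = 0.159).

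Of 12 contractile genes of smooth muscle 4 rose (33.3%, against 1.42% of all genes), 0 fell and 8 did not pass. The median change of the list was 2.18. Acta2, the smooth muscle actin of myofibroblasts, was at 99.5, 0.714 and 516 CPM under CKI and at 0.281, 0 and 0.417 CPM in vehicle. The groups did not overlap, but treated B48051 stayed under 1 CPM, and the fitted change was 9.49 ± 1.07 (adjusted p = 0.00634), the largest among called genes that moved in all 3 lines and averaged a log2 CPM of at least 2. Cnn1, calponin, was at 25.2, 1.18 and 92.6 CPM under CKI and at 1.45, 0.0523 and 0.937 CPM in vehicle (5.22 ± 0.92, adjusted p = 0.0222). Lmod1, leiomodin, was at 73.9, 0.546 and 94.2 CPM under CKI and at 10.8, 0.261 and 4.69 CPM in vehicle (3.14 ± 0.65, adjusted p = 0.036). Actg2 was at 27, 0 and 22 CPM under CKI and at 0.422, 0 and 0 CPM in vehicle (7.06 ± 1.09, adjusted p = 0.0317), with no count in line B48051. These 4 genes were thus at 22 CPM or more in treated B47275 and B52482 and under 2 CPM in both arms of B48051, where 8 of the 12 list members were over 1 CPM under CKI and 6 in vehicle. Acta1, listed as a skeletal muscle marker, averaged 2.35 ± 2.12 CPM under CKI and 0.406 ± 0.325 CPM in vehicle (2.48 ± 0.43, adjusted p = 0.0197). The actin genes Acta1, Acta2 and Actg2 are near-identical in their coding parts, so reads may be shared among them in the counting. The 5 tested markers of skeletal muscle, Acta1 among them, summed to 8.48, 4.7 and 2.81 CPM under CKI and to 2.48, 3.5 and 1.98 CPM in vehicle. In B47275, B48051 and B52482, those over 1 CPM numbered 3, 3 and 1 under CKI and 0, 1 and 0 in vehicle. Myh1 was at no more than 0.469 CPM in any of the 6 libraries. The count of called contractile genes was 1 without B47275, 1 without B48051 and 0 without B52482.

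Genes of the TGF-beta and matrix lists also rose in part. Of 17 genes of the TGF-beta and YAP response 5 rose (29.4%, against 1.42% of all genes) and 0 fell. Tgfb2, a TGF-beta ligand, was at 118, 23 and 113 CPM under CKI and at 13.4, 3.76 and 17.4 CPM in vehicle, a rise of 2.82 ± 0.35 (adjusted p = 0.00769). Its sizes in the lines were close (3.12, 2.58 and 2.69), and the groups did not overlap. The YAP targets Lats2 (1.25 ± 0.19, adjusted p = 0.0139), Amotl2 (1.54 ± 0.35, adjusted p = 0.0497) and Cyr61 (1.43 ± 0.33, adjusted p = 0.0497) rose, and Lats2 and Amotl2 encode inhibitors of YAP. Ctgf, another YAP target, was at 294, 1430 and 2278 CPM under CKI and at 83.6, 454 and 209 CPM in vehicle and did not pass (2.29 ± 0.72, adjusted p = 0.108). The ligand Tgfb1 had the other sign, at 20.6, 16.2 and 27 CPM under CKI and 26.4, 42 and 90 CPM in vehicle (-1.16 ± 0.30, adjusted p = 0.0742). The count for this list was 2, 1 and 0 without B47275, B48051 and B52482.

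Of 20 collagen and matrix genes 3 rose (15%, against 1.42% of all genes), with a list median of 1.82. Sparc, a collagen-binding glycoprotein, was at 7523, 1329 and 12403 CPM under CKI and at 2428, 290 and 6001 CPM in vehicle (1.62 ± 0.32, adjusted p = 0.0301). Col5a2 was at 3272, 432 and 3114 CPM under CKI and at 493, 42.1 and 787 CPM in vehicle (2.69 ± 0.53, adjusted p = 0.0309). Col12a1 was at 1601, 301 and 2111 CPM under CKI and at 189, 47.4 and 278 CPM in vehicle (2.89 ± 0.65, adjusted p = 0.0473). All were higher in each line, from a lower level in B48051. Timp3, an inhibitor of matrix proteases, was at 398, 351 and 3709 CPM under CKI and at 11.8, 86.4 and 291 CPM in vehicle (3.59 ± 0.69, adjusted p = 0.0298). It was the only call among 14 proteases and inhibitors (7.14%, against 2.48% of all genes).

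Dcn (decorin), a proteoglycan of the matrix and here listed as a fibroblast marker, was at 311, 15.5 and 155 CPM under CKI and at 7.21, 0.314 and 2.97 CPM in vehicle. Each treated library exceeded each vehicle library, the lines gave 5.41, 5.26 and 5.66, and the fitted change was 5.57 ± 0.67 (adjusted p = 0.0083). It was the only call among 10 fibroblast markers (10%, against 2.48% of all genes). Their summed level was 1485, 22.2 and 2195 CPM under CKI and 33.8, 5.54 and 247 CPM in vehicle, higher under CKI in each line. In B47275, B48051 and B52482, the markers over 1 CPM numbered 7, 3 and 7 under CKI and 5, 2 and 7 in vehicle. Of the collagen markers in that list Col1a1 was at 329, 4.66 and 1750 CPM under CKI and at 1.36, 1.41 and 56.1 CPM in vehicle (adjusted p = 0.0753). The fibroblast markers Dpt and Thy1 had at most 5 and 15 counts in any of the 6 libraries, and Pdgfrb had 0 counts in both arms of B48051. The part of fibroblasts in the matrix and contractile results was not tested. Of 9 leukocyte markers 3 were tested, and those summed to at most 4.13 CPM in any of the 6 libraries, with Ptprc and Cd3e too low to test. Of 5 red blood cell and 3 parathyroid markers 0 had enough counts to be tested. Of 10 endothelial markers 7 were tested, and those summed to 4.12 to 18.2 CPM under CKI and 6.38 to 39.2 CPM in vehicle, with 0 of 7 called. Calcb, listed as a C cell marker, fell to 0.108, 1.43 and 0 CPM under CKI, against 11, 30.2 and 5.78 CPM in vehicle (-5.80 ± 0.92, adjusted p = 0.0333), while Calca, its near copy that defines C cells, stayed at 1.66 CPM or less. Among adipocyte markers 0 of 1 tested and among respiratory or stratified epithelium markers 0 of 4 tested were called.

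Epithelial and mesenchymal genes gave no call, and the lines differed in them. Of 22 epithelial genes 0 were called. In B52482, 9 of the 22 were over 1 CPM under CKI and 8 in vehicle, against 21 or 22 in the other lines, and Epcam was at 96.7, 317 and 0.341 CPM under CKI and at 254, 403 and 0.364 CPM in vehicle. Of 12 mesenchymal genes 0 were called, and Cdh2, N-cadherin, was at 416, 344 and 374 CPM under CKI and at 266, 72.5 and 260 CPM in vehicle without overlap (1.12 ± 0.35, adjusted p = 0.105). Over the 388 called genes, which were picked with all 3 lines in the fit, B52482 had the largest median absolute log2 change. It was 1.59, against 1.24 in B47275 and 1.38 in B48051, and B52482 had the largest change of the 3 for 200 genes. The ranking did not hold in every list. Median changes of B47275, B48051 and B52482 were -1.55, -1.92 and -0.84 for mitosis and -1.38, -1.19 and -0.65 for replication.

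Receptors and ligands of growth factor pathways gave few calls. Fgfr2, an FGF receptor, was at 32.2, 89.8 and 74.3 CPM under CKI and at 2.67, 14.8 and 2.76 CPM in vehicle, without overlap (3.62 ± 0.74, adjusted p = 0.0345). It was the only call among 15 receptor tyrosine kinases (6.67%, against 2.48% of all genes). Wildtype libraries held Fgfr2 at 219 ± 33 CPM. Of 18 ligands 0 were called. Igf1 was at 68.7, 7.85 and 338 CPM under CKI and at 0.0937, 0.941 and 3.12 CPM in vehicle (6.16 ± 1.50, adjusted p = 0.0602), and Nrg1, a ligand of ERBB3, was at 87.5, 77 and 232 CPM under CKI and at 32.7, 39.2 and 29 CPM in vehicle (1.78 ± 0.48, adjusted p = 0.0757). Both were higher in each treated library than in each vehicle library. Igfbp2, which binds IGF in the extracellular space, was at 774, 38.9 and 1722 CPM under CKI and at 7.92, 0.0523 and 16.7 CPM in vehicle. Its rise of 6.93 ± 0.82 (adjusted p = 0.00673) was alike in the lines (6.59, 8.05 and 6.68), and the other 5 IGF binding proteins did not pass (16.7% called, against 2.48% of all genes).

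Other lists held 1 call or none, where 2.48% of all genes were called. Acsl3, which activates fatty acids, fell among 10 genes of fatty acid synthesis (10% called), at 57.6, 92 and 24 CPM under CKI and 145, 309 and 51.2 CPM in vehicle (-1.39 ± 0.25, adjusted p = 0.0263). Gabarapl1, an autophagosome protein, rose by 0.90 ± 0.20 among 18 lysosome and autophagy genes (adjusted p = 0.0472, 5.56% called). Wnt4 rose by 2.83 ± 0.64 among 17 Wnt genes (adjusted p = 0.0475, 5.88% called). The lists with 0 calls were sterol synthesis (21 genes, median -0.36), interferon response (20, median 0.91), MHC class I presentation (13, median 0.57), the BCL2 family (14, median 0.25), SWI/SNF subunits (25, median 0.05), chemokines and cytokines (17), BMP and Id genes (14), retinoic acid (13), cilium (6), acute stress (12) and the integrated stress and unfolded protein response (17). Mcl1, which blocks cell death, was at 266, 309 and 411 CPM under CKI and at 176, 229 and 192 CPM in vehicle (0.71 ± 0.19, adjusted p = 0.0752).

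The largest changes lay partly outside the lists. Besides Acta2, Igfbp2, Lrp2, Dcn and Cnn1, the 12 largest rises (4.73 to 9.49) were Ces1d, Galntl1, Nkain4, Npr3, Fam189a2, Dclk3 and Cacna1g. Npr3, the clearance receptor for natriuretic peptides, was at 345, 110 and 383 CPM under CKI and at 23.2, 3.29 and 0.0521 CPM in vehicle (5.80 ± 1.30, adjusted p = 0.0473). Cacna1g, a T-type calcium channel, averaged 17.4 ± 12.3 CPM under CKI and 0.595 ± 0.581 CPM in vehicle (4.73 ± 0.76). Ces1d (7.43 ± 1.33) belongs to a cluster of near copies of carboxylesterase genes, so its counts are uncertain. Among rises with the smallest p, the adhesion molecule Mcam was at 374, 435 and 320 CPM under CKI and at 50.5, 80.6 and 29.8 CPM in vehicle (2.91 ± 0.32, adjusted p = 0.00634). Ttc28 was at 129, 154 and 151 CPM under CKI and at 39.6, 57.4 and 55.9 CPM in vehicle (1.52 ± 0.18, adjusted p = 0.00634), with hardly any spread between lines. Dlc1 was at 157, 26.9 and 551 CPM under CKI and at 36.2, 4.86 and 86.9 CPM in vehicle (2.42 ± 0.26, adjusted p = 0.00634), higher in every line though the groups overlap.

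The 12 largest falls (-3.61 to -6.08) included Csn3, Pyhin1, Klhl4, Cd53, 2310002L13Rik, Fer1l6, Nxph3, Kcnn4, Lingo1, Hmga2 and Atp13a4. Hmga2, an architectural chromatin protein of embryonic and tumor cells, was the most abundant of them, at 39.2, 117 and 19.6 CPM under CKI and at 367, 821 and 667 CPM in vehicle, with no overlap (-3.68 ± 0.62, adjusted p = 0.0193). Fer1l6, a ferlin family gene, was at 0.395, 1.01 and 0.213 CPM under CKI and at 15, 13.7 and 16.9 CPM in vehicle (-4.97 ± 0.57, adjusted p = 0.00634). Kcnn4, a calcium-activated potassium channel, was at 0.359, 4.96 and 3.41 CPM under CKI and at 2.72, 82.7 and 79.2 CPM in vehicle (-4.01 ± 0.75, adjusted p = 0.0267). Cd53, a tetraspanin best known from leukocytes, was at 1.15, 0.504 and 0.17 CPM under CKI and at 9.98, 20.3 and 46.4 CPM in vehicle (-5.14 ± 0.84, adjusted p = 0.0175). Csn3, a milk casein, was at 0.0359, 0.294 and 0.128 CPM under CKI and at 0.984, 6.32 and 47.5 CPM in vehicle (-6.08 ± 0.93, adjusted p = 0.0196). The tested gene 2310002L13Rik was at 0.359, 2.65 and 0 CPM under CKI and at 19.4, 57 and 0.156 CPM in vehicle (-5.00 ± 0.41, adjusted p = 0.00472), so line B52482 hardly contributed. Of the named genes, Dusp4, Ak4 and 2310002L13Rik were called with any of the 3 lines left out.

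**Figure D4:**
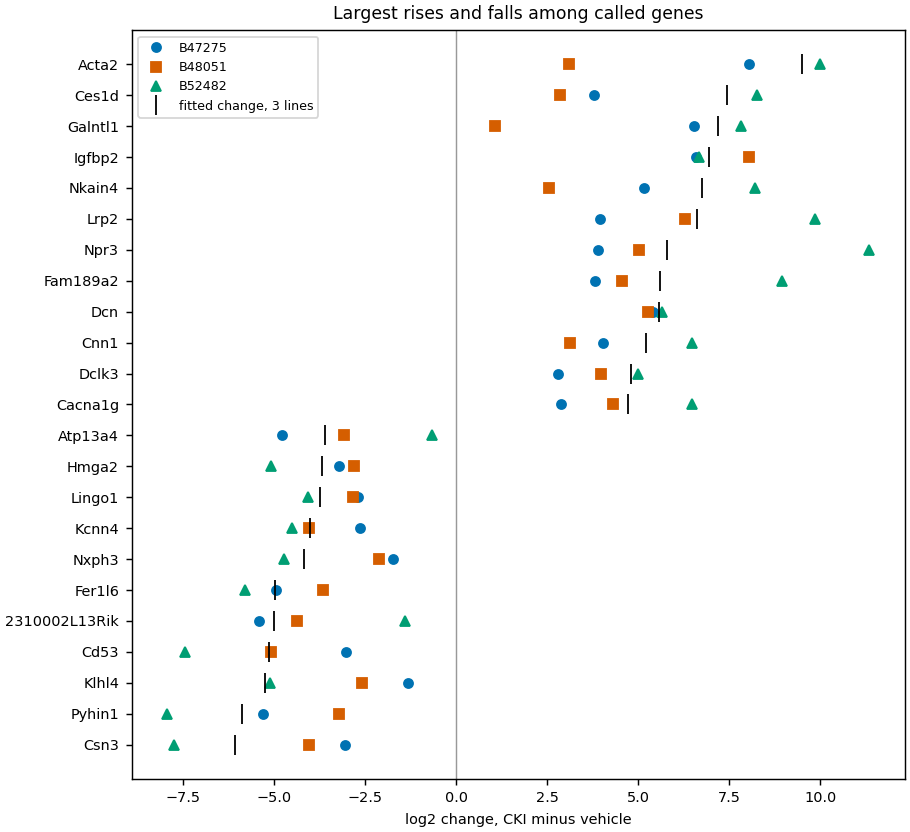
Log2 change (CKI minus vehicle) of the 12 largest rises and of 11 of the 12 largest falls, by line (symbols) and as fitted over the 3 lines (vertical ticks). The ticks run from 9.49 for Acta2 to -6.08 for Csn3; Dcn has symbols close together, while Acta2, Npr3 and Atp13a4 have symbols far apart.

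The Braf response was set against that of the 3 knockout genotypes, each of which had its own treated and vehicle libraries in the same fit. The edgeR test of the difference between the Braf response and the mean knockout response called 0 of 15634 genes (0%), with 634 at an unadjusted p under 0.05. By that test no gene is shown to respond differently with Braf alone, while DESeq2 called 4 genes. Among knockout lines CKI raised 17% and lowered 15.3% of genes in Arid1a KO lines, 3.52% and 2.76% in Arid2 KO lines, and 0.486% and 0.569% in Smarcb1 KO lines. Of the 222 genes that rose in Braf lines, 198 rose in Arid1a KO lines (89.2% of the Braf calls and 7.43% of the Arid1a KO calls), 156 in Arid2 KO lines (70.3% and 28.4%) and 13 in Smarcb1 KO lines (5.86% and 17.1%). Of the 166 that fell, 153 fell in Arid1a KO lines (92.2% and 6.41%), 116 in Arid2 KO lines (69.9% and 26.9%) and 15 in Smarcb1 KO lines (9.04% and 16.9%). A change of the same sign, called or not, was seen in Smarcb1 KO lines for 185 of the 222 and 150 of the 166. In the Smarcb1 KO group, treated BS53958 and BS53965 had shallow libraries, at 11684983 and 2884130 counts, and the part of depth in the Smarcb1 KO calls was not tested.

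The genes that led the Braf response had these changes in the knockout lines. Dusp4 changed by -2.48 ± 0.19 in Braf lines, by -2.59 in Arid1a KO lines (adjusted p = 8.43e-05) and by -2.29 in Arid2 KO lines (adjusted p = 0.000843), and its value in Smarcb1 KO lines was -0.38 (adjusted p = 0.381). Acta2 rose by 9.49 in Braf lines, by 10.47 in Arid1a KO lines and by 9.89 in Arid2 KO lines, and its value in Smarcb1 KO lines was 1.33 (adjusted p = 0.808). Dcn rose by 5.57 ± 0.67 in Braf lines and by 3.57 in Arid2 KO lines (adjusted p = 0.0367), with a value of -0.33 in Arid1a KO lines (adjusted p = 0.673). Tg, which did not pass in Braf lines, rose by 5.81 in Arid1a KO lines (adjusted p = 0.0068). None of these 4 genes passed the test of the difference from the mean knockout response, and differences from a single knockout genotype were not tested.

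**Figure D5:**
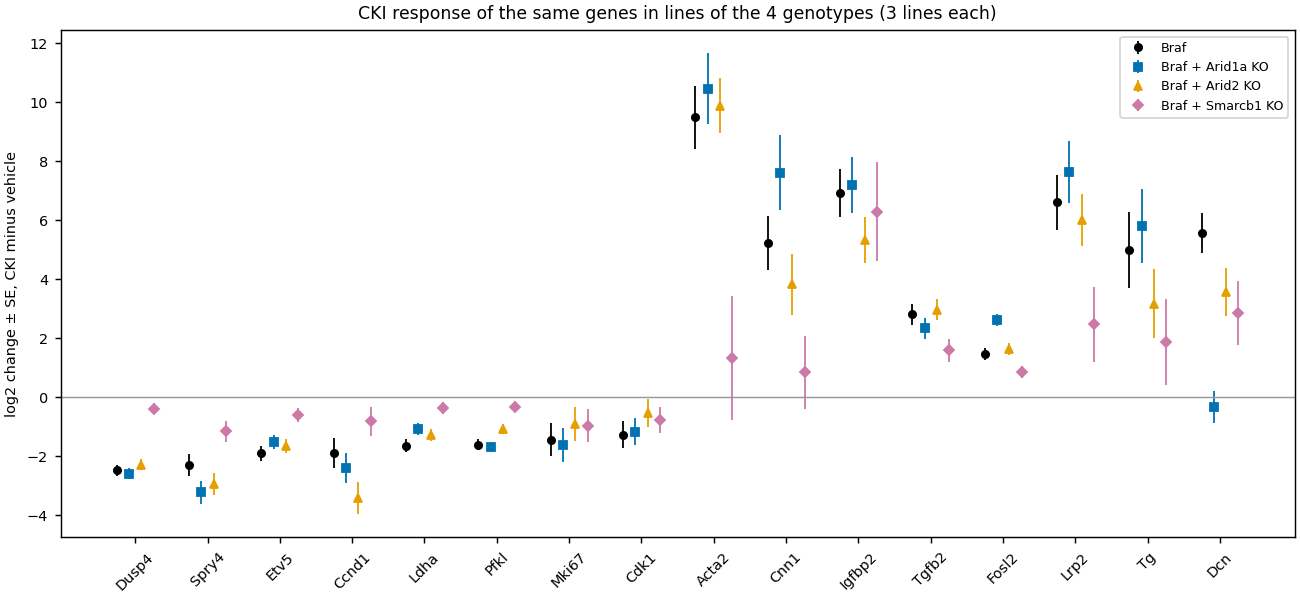
Fitted log2 change (CKI minus vehicle) ± SE of 16 genes in Braf lines (black circles) and in lines with Arid1a, Arid2 or Smarcb1 knockout, 3 lines each. Dusp4, Acta2 and Lrp2 have similar changes in Braf, Arid1a KO and Arid2 KO lines, Smarcb1 KO lines lie nearer 0 for most genes, and Dcn is at 5.57 in Braf lines and -0.33 in Arid1a KO lines.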

How the data were processed

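The authors deposited a table of raw read counts, in which each of 33924 gene symbols is a row and each library a column. TRIzol extraction and a TruSeq kit were used, per the labels' protocols. Per the submitters' processing notes, mm9, STAR 2.4, HTSeq 0.6.1 and DESeq2 were involved, in roles not stated. The annotation and the strand setting were not given in the sources used here. Counts were tested in R 4.3.3 with edgeR 4.0.16 (quasi-likelihood test, TMM scaling, its default filter on low counts by group) on the 24 tumor line libraries. The model had the line as a block and 1 inhibitor effect per genotype, with 8 residual degrees of freedom, and p-values were adjusted by Benjamini-Hochberg over 15634 genes. Limma 3.58.1 was loaded with edgeR, and DESeq2 1.42.0 served as an alternative. The test was run on simulated data that gave all genotypes the same spread. That run cannot show whether the shared estimate of the spread suits the Braf lines. The SE is the log2 change divided by the square root of its F statistic, and changes per line are differences of log2 CPM with a prior count of 2. CPM were scaled over the 24 libraries, and those of wildtype libraries over 27.

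The pairing comes from the line id in the labels. Deviations from the group means correlated between the CKI and vehicle libraries of each line (0.691 to 0.773 in Braf lines, 0.259 to 0.773 over 12 lines), and without the replicate block 0 genes were called.

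Gene lists, members and tests were chosen with earlier results of these data known. The genes named were all members of the ERK, thyroid factor, hormone production and hormone handling lists, up to 4 called members of each other list by smallest adjusted p, the 12 largest rises and 12 largest falls (called, average log2 CPM no lower than 2, 1 direction in all 3 lines), and the 5 rises and 5 falls with the smallest p. Other genes named were chosen after their values were seen. A few genes that the rule names are not reported here. Alternatives were other scaling, filters, tests, sets of libraries, thinned counts and leaving out each line. Promoter sequences are from RefSeq, and no genome coordinates were assigned to the counts.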

Additional observations from a re-analysis of the deposited data

Results flagged for a closer look

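In 2 of the genes named, every Braf line moved one way under CKI and every line of a knockout genotype the other way. The early response factor Egr1 had a mean change of 1.17 over the Braf lines, against a mean of -0.491 over the Arid1a KO lines. Dlc1 had a mean change of 2.41 over the Braf lines, against a mean of -1.08 over the Smarcb1 KO lines. The difference between the Braf lines and the single knockout genotype was not tested for either gene. The difference from the mean knockout response did not pass in edgeR's quasi-likelihood test (adjusted p = 1 for both).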

How the results depend on the processing

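The count of 388 called genes (222 higher, 166 lower) changed with the test, the block and the libraries in the fit. In every alternative the called genes that were tested kept their direction, which adds no support because they were picked from the same data. The count was 374 with RLE size factors, 358 with no filter, 408 with at least 1 CPM in at least 6 libraries and 373 with the Braf libraries thinned to one depth. DESeq2 called 1696 (930 higher, 766 lower), and 4 for the difference from the mean knockout response. With all 27 libraries the count was 833 (482 higher, 351 lower). It was 200 (116 higher, 84 lower) without Smarcb1 KO lines BS53958 and BS53965, and 211 (123 higher, 88 lower) without all 3 Smarcb1 KO lines, an alternative chosen after seeing the data. Without the replicate block it was 0 (0 higher, 0 lower). With only the 6 Braf libraries it was 1 (1 higher, 0 lower) with the replicate block and 0 without it. Leaving out a line gave 6 to 63 called genes (3 to 42 higher, 3 to 21 lower), with 51 without B47275, 63 without B48051 and 6 without B52482. The cause of these differences was not tested. Of 102 named genes, 55 called ones missed the threshold without the replicate block and 51 without B52482. Among lists with 0 calls, DESeq2 called 14 mitosis and 4 DNA replication genes lower, and 2 hormone production genes and 1 thyroid factor higher with 1 production gene lower. Members of other such lists were called by DESeq2 as well. Among them were 4 growth factor ligands higher, 4 ribosome biogenesis genes lower and 3 SWI/SNF subunits higher. The RAS, RAF, MEK and ERK core had 2 higher and 1 lower, and chemokines and cytokines had 2 each way. The fit with all 27 libraries called 3 mitosis genes and 1 replication gene lower, and 2 production genes and 1 thyroid factor higher. Other lists with 0 calls gained calls in that fit too, among them 2 growth factor ligands higher. Genes under about 1 CPM rest on few counts.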
